A study of Mus musculus with 4 samples.

Results

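The genes described here serve melanocytes, the pigment cells that reach the skin and hair follicles from the neural crest. There are 10 of them: Dct, Tyr, Tyrp1, Pmel, Mitf, Kit, Kitl, Ednrb, Mlana and Slc45a2. They were found by their symbol in the platform annotation, which lists 13 probe sets for 8 of the 10 genes, out of 13674 genes named on the arrays. The first array type carries 11 of these probe sets, for 8 genes, and the second carries 2, for Dct and Ednrb. Mlana and Slc45a2 have no probe set listed under their symbol and are not analysed here.

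Whole skin of newborn mice (postnatal day 0) of the inbred strain FVB/N was compared between loricrin knockout and wildtype animals. Loricrin is the main protein of the cornified envelope, the cross-linked shell of dead surface keratinocytes. No group carried another allele or treatment according to the labels, and the labels do not say how the knockout allele was made or whether animals were pooled. Each genotype has 2 arrays, 1 on each of 2 Affymetrix array types with different probe sets, so there is 1 array per genotype and type. The labels call the second array of a genotype a replicate and do not say whether it held RNA of another animal.

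Melanin is made in melanosomes, organelles that assemble on fibrils of Pmel and receive the enzymes tyrosinase (Tyr), Tyrp1 and Dct, 3 related proteins of one family. Mitf is the transcription factor that drives these genes. Melanocyte precursors depend on the receptor Kit, whose ligand Kitl is made by neighbouring skin cells, and on the endothelin receptor Ednrb. FVB/N is an albino strain whose tyrosinase is inactive, so its melanocytes make no melanin even though pigment genes can be transcribed.

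The promoters of the 3 enzyme genes are shown because they share the sequence through which Mitf is known to bind them, an extended E-box called the M-box. RefSeq promoter sequences (build GRCm38.p6, from the C57BL/6J reference and not from FVB/N) were matched for 7 of the 10 genes. Each line gives the 250 bases before the annotated start, 5′ to 3′ on the strand of the gene, with the motif TCATGTGCT in capitals.
Dct (chr14:118052247-118052496, minus strand): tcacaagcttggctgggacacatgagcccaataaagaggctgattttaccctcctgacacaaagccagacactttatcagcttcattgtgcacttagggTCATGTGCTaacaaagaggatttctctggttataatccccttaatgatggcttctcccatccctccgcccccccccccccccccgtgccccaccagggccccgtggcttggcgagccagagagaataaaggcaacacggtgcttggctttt
Tyr (chr7:87493513-87493762, minus strand): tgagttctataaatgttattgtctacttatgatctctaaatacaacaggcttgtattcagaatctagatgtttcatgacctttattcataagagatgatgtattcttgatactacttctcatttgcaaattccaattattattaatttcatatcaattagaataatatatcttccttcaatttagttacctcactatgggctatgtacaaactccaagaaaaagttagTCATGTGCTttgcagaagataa
Tyrp1 (chr4:80833963-80834212, plus strand): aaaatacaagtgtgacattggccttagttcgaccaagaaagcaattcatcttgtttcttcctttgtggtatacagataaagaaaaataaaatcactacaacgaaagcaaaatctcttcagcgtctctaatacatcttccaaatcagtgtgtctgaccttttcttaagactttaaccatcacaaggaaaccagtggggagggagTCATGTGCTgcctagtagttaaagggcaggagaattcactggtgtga

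The motif TCATGTGCT was found once in each of these 3 windows. It lay 151 to 143 bases before the start of Dct, 22 to 14 bases before that of Tyr and 47 to 39 bases before that of Tyrp1. Searched on both strands, it occurred in 110 of 32851 promoter windows of the same length, or 0.335%. Its core CATGTG, which the longer motif contains, occurred in 12.3% of windows. Dct held a further CATGTG on the opposite strand, 232 to 227 bases before the start. The related E-box CACGTG, present in 6.02% of windows, was in none of the 10 windows of the 7 matched genes. Neither TCATGTGCT nor CATGTG was in those of Mitf, Kit, Kitl and Ednrb, which says only that these letters are not in those windows.

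Values are signals in the linear units of MAS5, the Affymetrix method that makes 1 signal per probe set. Signals of different probe sets are not on a common scale, so only the 2 arrays of a type are compared. Summed signals of a gene list are therefore led by its brightest probe sets and are not levels of a cell type. Ratios are log2 of knockout over wildtype, after signals below a floor were set to it. The floor, the mean of the 40th percentiles of both arrays, was 77.6 for the first type and 133 for the second. Each type holds a single array per genotype, which allows no test within a type, and a difference of at least 2-fold is used as a rule of size. A yardstick of error came from the 1082 genes with a mean log2 signal above the floor on both types, whose log2 ratio had an SD of 0.39 between types. It mixes differences between probe sets with those between arrays.

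The genotype labels and the makeup of the skin bear on everything below. On the first type the loricrin signal was 2013 in the knockout array and 41225 in the wildtype array. The knockout array also read 857 for Xist, an RNA of female cells, against 24.7 in wildtype, and 42.7 against 1071 for the Y-linked Eif2s3y. The second-type signals of Kdm5d, also Y-linked, were 27.8 against 470, so genotype and sex cannot be told apart here. Of 8 dermal fibroblast markers on the first type, 5 were at least 2-fold lower in knockout (Col3a1, Col1a1, Eln, Twist2 and Lum). Of all genes of that type 2.15% differed at least 2-fold either way. The knockout signals of Col3a1, Eln and Lum lay under the floor. Col1a2 and Dcn had log2 ratios of 0.0070 and -0.054, and Pdgfra went the other way with 0.53. The summed signal of the list was 4161 against 7665. In whole skin, fewer cells of a type and less RNA per cell cannot be told apart.

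All 7 member probe sets that lay above the floor in both arrays read higher in knockout skin, and Dct passed 2-fold, on the second type. On the first type none of the 11 member probe sets passed 2-fold, where 2.09% of all 12422 probe sets did. On the second type 1 of 2 passed, where 3.32% of 12411 did. Both of these second-type probe sets carry the suffix _s, which was taken to mark shared sequence. Leaving such probe sets out did not change the first-type count and left none on the second type. Of the 11 first-type probe sets, 5 lay above the floor in both arrays, 2 in the knockout array only and 4 in neither. The 2 that entered through the knockout array alone, Mitf and Tyr, could only read higher there. The median log2 ratio of the 7 above the floor in at least 1 array was 0.34, against 0.0070 over all probe sets above the floor. Among all 7031 probe sets above the floor in both arrays of that type, 51.9% read higher in knockout. With no floor the knockout signal was the higher for 10 of the 11 first-type probe sets of the members, and for 47.3% of all probe sets. The members share their 2 arrays and are not independent of each other.

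**Figure D1:**
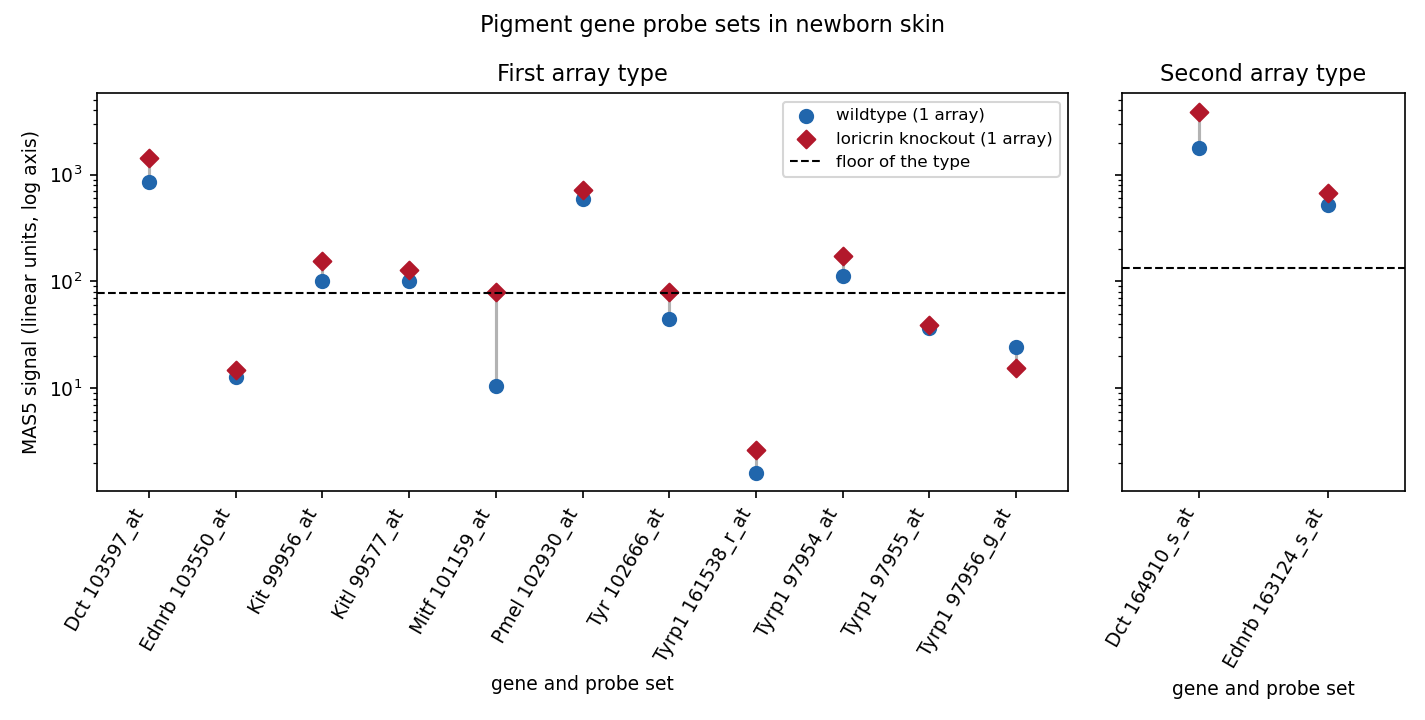
MAS5 signal (linear units on a log axis) of each of the 13 member probe sets in the wildtype array (blue circles) and the loricrin knockout array (red diamonds), per array type, 1 array each. The dashed line is the floor, 77.6 (first type) or 133 (second type), and Tyrp1 97956_g_at is the 1 probe set whose knockout signal lay below the wildtype signal.

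Dct, the dopachrome tautomerase that acts after tyrosinase in melanin synthesis, differed most among the members measured in both arrays. Its first-type probe set (103597_at) gave 1429 in the knockout array against 856 in the wildtype array, for a log2 ratio of 0.74 or 1.67-fold. The second-type probe set (164910_s_at) gave 3901 against 1769, for a log2 ratio of 1.14 or 2.21-fold. The knockout array was thus the higher one on both types. Of the probe sets above the floor in both arrays, 2.77% of the first type had a ratio at least as high, and 0.843% of the second. The 2 ratios differed by 0.40, less than the SD of 0.55 that such differences had over the 1082 genes.

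Dct is the 1 member with a signal above the floor on both types, and it was tested with limma over all 4 arrays, with array type as a block. Averaged over both, its log2 ratio came to 0.94 (SE 0.24, higher on 2 of 2 types). Its unadjusted limma p was 0.00132, the 7th smallest of 1082 genes, and its limma p after Benjamini-Hochberg adjustment over all of them was 0.203, which did not pass 0.05. One gene of the 1082 passed, 0.0924%, and 10.4% had an unadjusted p under 0.05. Over the alternatives that kept the block, the adjusted p of Dct lay between 0.00374 and 0.794. It was under 0.05 with the floor at the 60th percentile (0.00374), under spike-in scaling (0.0252) and with the median over the probe sets of each gene (0.0425). No label ties the arrays to separate animals, and spread between animals is therefore not measured by these p-values.

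Tyrp1, which in mice oxidises a late melanin precursor and steadies tyrosinase, has 4 probe sets on the first type, and 1 of them lay above the floor. That one (97954_at) gave 173 in the knockout array against 113 in the wildtype array, for a log2 ratio of 0.61 or 1.52-fold. The other 3 were under the floor in each array and cannot be compared. Of these, 97955_at read 38.7 and 36.6, 97956_g_at read 15.3 and 24.3, and 161538_r_at read 2.66 and 1.60. Only 97954_at thus carries a direction. Probe sets 97954_at, 97955_at and 97956_g_at are annotated to the same transcript record, so the gene's ratio rests on 1 of 3 probe sets for that transcript.

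Tyr, the rate-limiting enzyme of melanin synthesis, lay at the edge of what the arrays measured. Its probe set (102666_at) read 79.6 in knockout, just above the floor of 77.6, and 44.5 in wildtype, below it. The ratio at the floor, at least 1.03-fold, is set by the floor. With the floor at the 20th percentile, which is 20.1 on this type, the log2 ratio was 0.84, still short of 2-fold. Since Tyr passed the floor in the knockout array alone, it could only read higher there. Of the 3 enzymes whose promoters are printed above, Dct and Tyrp1 thus have a measured ratio.

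Pmel, the protein whose fibrils form the scaffold on which melanin is laid down, was measured well above the floor in both arrays of the first type. Its signals were 721 (knockout) against 598 (wildtype), for a log2 ratio of 0.27 or 1.20-fold. This is smaller than the SD of 0.39 between array types, and 23.5% of probe sets above the floor in both arrays had a ratio at least as high. On the same 2 arrays Dct had 0.74, and the difference between these genes was not tested.

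Mitf, the transcription factor of these genes, passed the floor in the knockout array alone. Its probe set (101159_at) read 79.9 in knockout, just above the floor, and 10.5 in wildtype, far below it. At the floor this gives at least 1.03-fold. With the floor at the 20th percentile Mitf was at least 3.98-fold higher, under a setting in which 3.49% of all probe sets passed 2-fold higher in knockout. With no floor and a pseudocount of 1 its log2 ratio was 2.81, where 6.71% passed. The size of the ratio is therefore set by the floor.

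**Figure D2:**
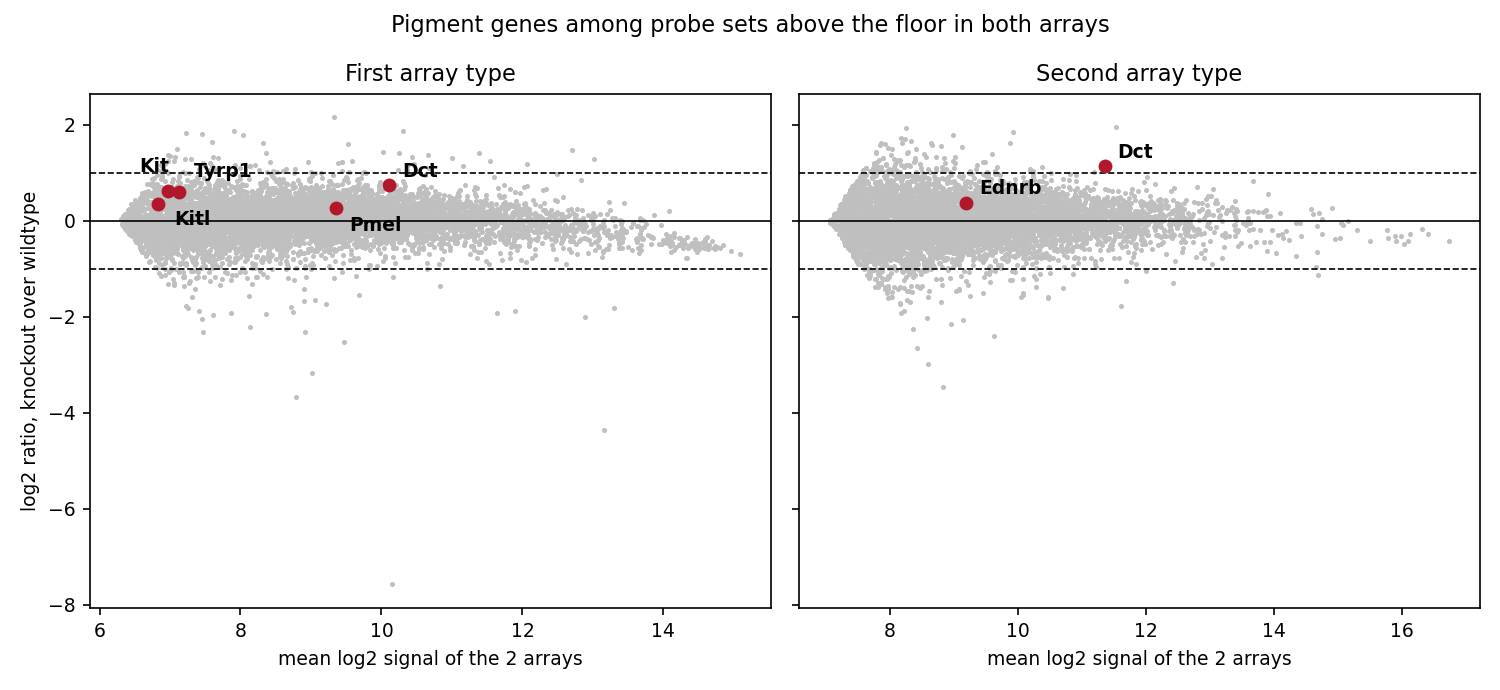
Log2 ratio of knockout over wildtype (vertical axis) against the mean log2 signal of the 2 arrays (horizontal axis) for every probe set above the floor in both arrays (grey), with the members in red and dashed lines at 2-fold. All 7 member points lie above 0, from 0.27 (Pmel) to 1.14 (Dct on the second type), and Dct on the second type lies beyond the upper line.

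The receptors and the ligand on which melanocyte precursors depend had ratios below those of Dct. Kit, the receptor tyrosine kinase, had first-type signals of 156 (knockout) against 101 (wildtype), for a log2 ratio of 0.62 or 1.54-fold. Kitl, its ligand, had 128 against 101, for a log2 ratio of 0.34 or 1.27-fold. Both signals of both genes lay close to the floor of 77.6, and the ratio of Kit alone exceeded the SD of 0.39 between types.

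Ednrb, the receptor through which endothelin 3 acts on melanocyte precursors, was measured by 1 of its 2 probe sets. The second-type probe set 163124_s_at gave 669 in the knockout array against 515 in the wildtype array, for a log2 ratio of 0.38 or 1.30-fold. The first-type probe set 103550_at gave 14.9 against 12.8, both under the floor, and no ratio. With no floor and a pseudocount of 1, limma over all 4 arrays gave Ednrb a mean log2 ratio of 0.29 (SE 0.29, adjusted p = 0.848), and with the floor added as a pseudocount 0.17 (SE 0.20, adjusted p = 0.867). The second-type ratio was just under the SD between types, and 17.3% of probe sets there had a ratio at least as high.

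Kit, Kitl and Ednrb are also expressed outside melanocytes, so markers of other cell types were read on the same arrays. Mast cells carry Kit as well. Of 13 mast cell markers on the first type, 10 were under the floor in each array, among them the proteases Cpa3 (26.4 in knockout, 68.7 in wildtype) and Mcpt4 (2.28 and 6.13). The other 3 were the tryptase gene Tpsb2 (166 and 237), the transcription factor Gata2 (198 and 206) and the chymase gene Cma1 (50.8 and 84.2). The summed signal of the mast cell list was 560 in knockout and 799 in wildtype, with the 10 genes under the floor included. The part of mast cells in the Kit ratio was not tested. Another Tpsb2 probe set, chosen after its values were seen, read 178 and 73.2, so the 2 probe sets of that gene disagree.

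Endothelial cells carry Ednrb and Kitl, and none of their markers passed 2-fold, where 2.15% of all genes of the first type and 3.69% of the second did. Of 7 endothelial genes on the first type, 3 lay above the floor in at least 1 array. Endoglin (Eng) gave 381 in the knockout array against 721 in the wildtype array, for a log2 ratio of -0.92, and Pecam1 gave 115 against 192, for a log2 ratio of -0.74. Kdr went the other way, with 79.2 just above the floor in the knockout array and 68.3 under it in the wildtype array. On the second type, the one on which Ednrb was measured, neither of 2 endothelial genes lay above the floor. The summed signal of the 7 genes, with those under the floor included, was 649 against 1138, of which Eng made up 381 against 721.

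Melanocyte transcripts were read in this skin, with Dct and Pmel well above the floor in each first-type array. Of 9 melanocyte markers on the first type, the members among them, 7 lay above the floor in at least 1 array. Mitf and Tyr did so in the knockout array only, just above the floor. Passing the floor is common, since only 36.4% of all first-type probe sets lay under it in both arrays. The 2 markers under the floor in each array were the melanosomal genes Oca2 (12.4 in knockout, 57.5 in wildtype) and Gpr143 (6.63 and 31.3). Their signals were lower in knockout but, being under the floor, cannot be compared. The summed signal of the list was 2953 against 2188 for the first type and 5076 against 2814 for the second. Of these sums Dct, already described above, made up 1429 against 856 and 3901 against 1769. On the second type the only other gene of the list was Sox10.

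Other derivatives of the neural crest share genes with melanocytes. Sox10, a transcription factor of melanocytes and Schwann cells that acts upstream of Mitf, gave first-type signals of 318 (knockout) against 350 (wildtype) and second-type signals of 1175 against 1045. Its log2 ratios were -0.14 and 0.17, and its mean ratio over both types was 0.014 (SE 0.24, limma adjusted p = 0.997, higher on 1 of 2 types). Dct and Sox10 were thus measured on the same 4 arrays with mean log2 ratios of 0.94 and 0.014, and the difference between them was not tested. Of 9 Schwann and neural crest genes on the first type, 6 lay above the floor in at least 1 array. One of them, the myelin gene Pmp22, was at least 2.51-fold lower in knockout (41.7 against 195), where 2.15% of all first-type genes passed 2-fold either way. Mbp had a log2 ratio of 0.0070, Egr2 of -0.056, Mal of -0.023 and Erbb3 of 0.32. On the second type L1cam had a log2 ratio of 0.56, and Ngfr read 24.6 against 161, at least 1.21-fold lower. The summed signal of this list was 5479 against 5101 in wildtype for the first type, and 3167 against 2543 for the second. Erbb3 alone made up 3263 against 2607 of the first sum, and L1cam 1968 against 1337 of the second. Of the 5 first-type genes above the floor in both arrays, 2 read higher in knockout and 3 lower, so that sum gives no common direction.

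Melanocytes of mouse trunk skin settle in hair follicles, and hair genes were read for that reason. Of 18 measured on the first type, Krt86 was 2.01-fold higher and Krt35 2.08-fold lower in knockout, and the list median was 0.021. Of 5 on the second type, Krtap16-1 was at least 3.72-fold higher and the median was 0.69. Over all genes, 2.15% of the first type and 3.69% of the second passed 2-fold either way. The summed hair signal was 7504 against 6390 in wildtype for the first type, and 6589 against 4289 for the second. Of these sums Gata3, which is not confined to hair, made up 3127 against 2119 and 2046 against 1488. Among keratinocyte markers of the first type the basal genes Itga6 and Trp63 were 3.06-fold and 2.09-fold higher. The basal keratin genes Krt5, Krt14 and Krt15 lay under the floor in each array of that type and cannot be compared. The summed list signal, dominated by Krt1 and Krt10, was 51445 against 68364. The 2 keratinocyte markers on the second type, Krt15 and Dsg1a, had log2 ratios of 0.25 and -0.59, and the summed signal was 28384 against 25012. Krt15 made up 26582 against 22304 of that sum. Both probe sets carry the suffix _f, which was also taken to mark shared sequence. The part of any of these cell types in the pigment gene ratios was not tested.

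Other genes of pigment cells went both ways. A list of 79 other pigment cell genes had 71 on the arrays. On the first type 53 were measured and none passed 2-fold, where 2.15% of all genes did. Of the 33 above the floor in both arrays, 18 read higher in knockout and 15 lower, and the median log2 ratio of the 37 above it in at least 1 array was 0.080. The second type measured 34, of which 1 passed, where 3.69% of all genes did. Of the 28 above the floor in both arrays, 15 read higher and 13 lower, and the median of the 30 above it in at least 1 was 0.049.

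The gene that passed was Sos1, an exchange factor that links receptors such as Kit to Ras. Its second-type signals were 318 (knockout) against 127 (wildtype), at least 2.39-fold higher, with the wildtype signal just under the floor of 133. Its first-type signals were 139 against 68.4, at least 1.79-fold higher. Over both types its log2 ratio averaged 1.05 (SE 0.24, limma adjusted p = 0.113, higher on 2 of 2 types). That mean was fitted on wildtype signals raised to the floor and depends on it. Its partners downstream of Kit were nearer to 0. Grb2 had a log2 ratio of 0.26 and Shc1 of 0.19 on the first type, and Ptpn11 had 0.17 on the second. Sos1 is expressed in most cell types, so its signal in whole skin is not one of melanocytes alone.

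Grouped by role, after the values were seen, the list was mixed in most groups. Among transcription factors Tfap2a had a log2 ratio of 0.54, Snai2 of 0.33, Usf1 of -0.75 and Tfeb of -0.76, all on the first type. Lef1, a Wnt effector of hair matrix and pigment cells, gave 683 against 505 (first type) and 1399 against 865 (second type), with log2 ratios of 0.44 and 0.69 (mean 0.56, SE 0.24, limma adjusted p = 0.444). In the melanocortin axis, which sets the type of melanin, Mc1r read 133 and 126, and the 4 ratios of its measured genes lay between -0.11 and 0.13. The transcriptional regulators Pax3 and Cited1 each had 1 signal under the floor, with 93.6 against 71.6 for Pax3 and 36.3 against 146 for Cited1.

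The endothelin axis, to which Ednrb belongs, had 5 of 6 ratios above 0 over the 2 types, with Ece1 counted on both. The 1 below was Gna11, at -0.23 on the first type. Of all probe sets above the floor in both arrays, 51.9% of the first type and 50.5% of the second read higher in knockout. The processing enzyme Ece1, which cuts endothelins to their active form, gave 994 against 537 (first type) and 1324 against 894 (second type). Its log2 ratios of 0.89 and 0.57 gave a mean of 0.73 (SE 0.24, limma adjusted p = 0.395, higher on 2 of 2 types). The ligand genes were closer to 0, with Edn1 at 0.24 on the first type and Edn3 at 0.0023 on the second, where it read 141 in both arrays, near the floor. Edn3 lay below the floor on the first type.

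Genes that build and move melanosomes did not go one way. For cargo sorting by the AP-3 and BLOC complexes, 5 of 9 first-type ratios and 2 of 8 second-type ratios were above 0. Subunits of 1 complex, AP-3, spread on the first type from 0.68 for Ap3d1 to -0.72 for Ap3m1. The melanosomal small GTPases Rab38 and Rab32 had ratios of -0.048 and -0.17 on the second type. In transport, Rab27a, which tethers melanosomes to the motor myosin Va, had 0.25 on the second type, and Myo5a itself had 0.026 and -0.016 on the 2 types. Among melanosome membrane and channel genes, Atp7a had 0.37, Bace2 0.43 and Gpnmb, a relative of Pmel, 0.30 on the second type, where Mcoln3 read 129 against 145 with its knockout signal under the floor. The first-type values of this group were 0.11 for Atp7a, -0.050 for Cd63 and -0.21 for Trpm1. The brightest list members on the first type, the actin regulator Dstn and the receptor Erbb3, had ratios of -0.41 and 0.32.

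**Figure D3:**
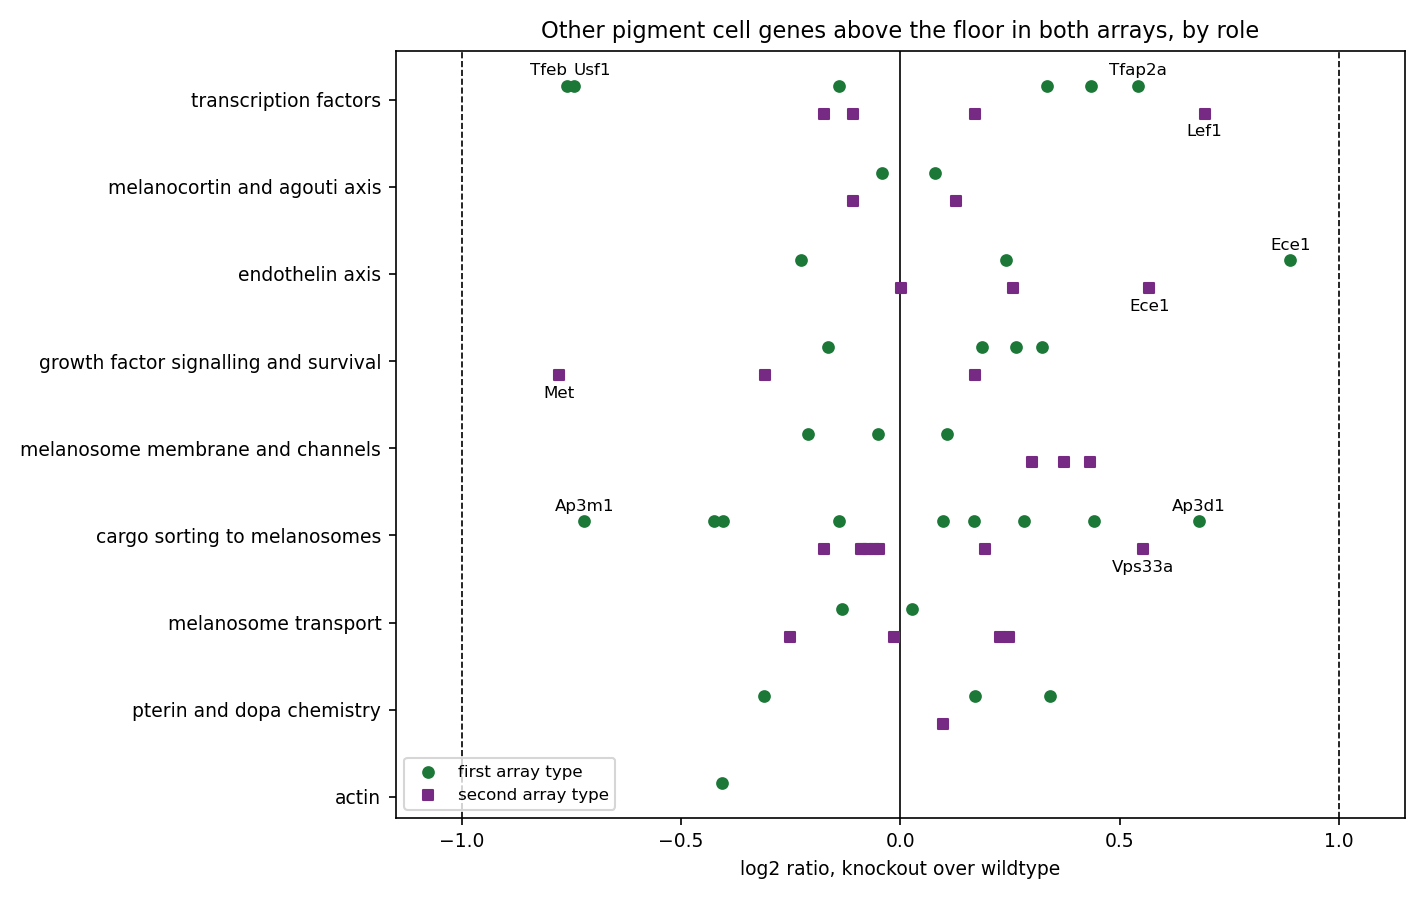
Log2 ratio of knockout over wildtype (horizontal axis) for each of the other pigment cell genes above the floor in both arrays, in rows by role, with first-type values as green circles, second-type values as purple squares, dashed lines at 2-fold and names where the ratio is beyond 0.5 either way. Points lie on both sides of 0, 18 above and 15 below for the first type, 15 above and 13 below for the second; genes with 1 signal at the floor, Sos1 among them, are not drawn.

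The direction of the members' ratios held under the scalings tried, while their size did not always. A changed floor or an added pseudocount cannot reverse a direction, and spike-in scaling raised the ratios. Only the other scalings could therefore have reversed one. Over the main setting and 9 alternatives the log2 ratio of Dct lay between 0.66 and 1.43 (first type) and between 1.08 and 1.79 (second type). Pmel lay between 0.21 and 0.96, and Ednrb on the second type between 0.31 and 1.03. Kit, Kitl and Tyrp1 97954_at were above 0 under 9 of 10 settings and had no ratio under the other, the floor at the 60th percentile (238), which lies above both their signals. The highest of these values came from scaling on 9 bacterial spike-in probe sets, which raised the median of all probe sets above the floor to 0.66 for the first type and 0.60 for the second. Relative to that median the differences of the members above the floor in both arrays were close to those without it. Mitf and Tyr, whose ratios are set by the floor, lay below it at 0.36 each.

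**Figure D4:**
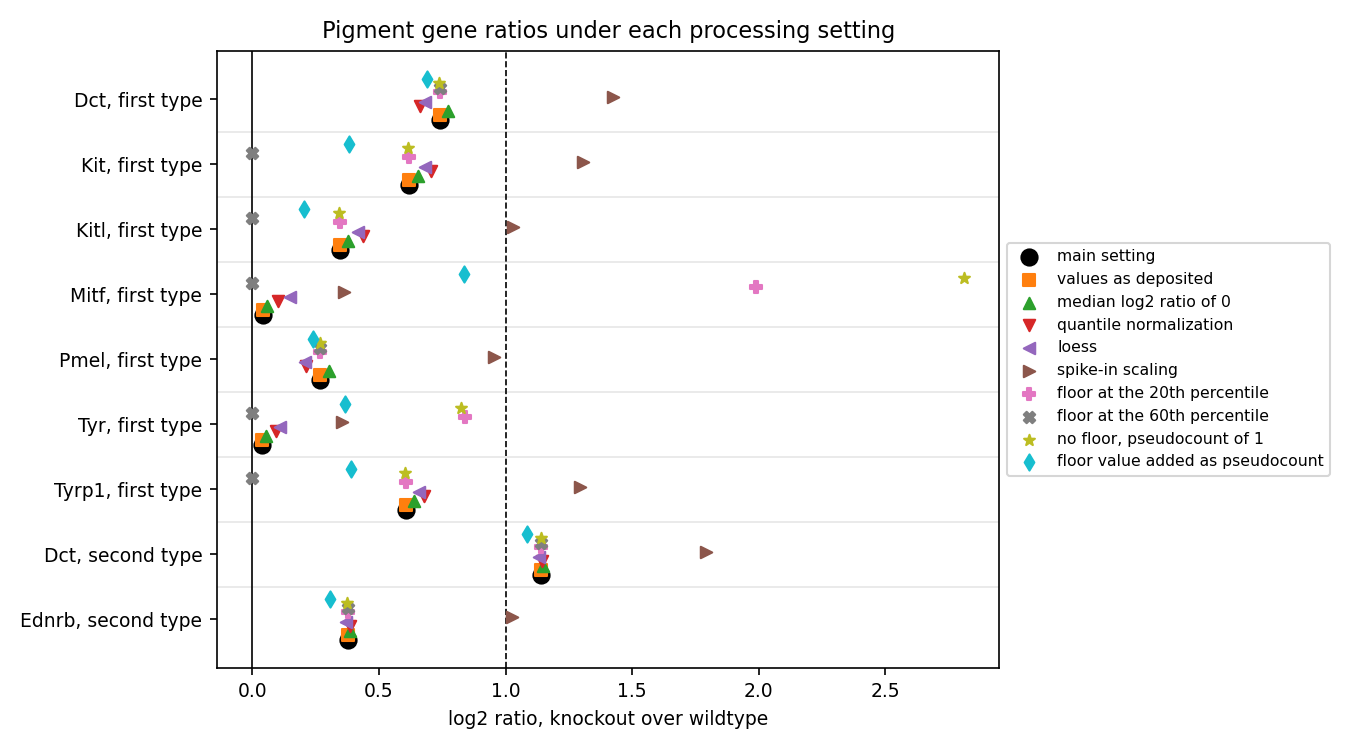
Log2 ratio of knockout over wildtype (horizontal axis) of the 9 member probe sets above the floor in at least 1 array, under the main setting (large black circles) and 9 alternatives (other symbols), with a dashed line at 2-fold. No point lies below 0, those at 0 have both signals at the floor, and Dct on the second type lies beyond 2-fold under all 10 settings.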

How the data were processed

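Signals came from 4 Affymetrix arrays of biotin-labelled total RNA. The deposited intensity values, 1 linear signal per probe set, were made by the authors with MAS5, per the submitters' processing notes, whose version and scaling target the sources used here do not give. The 4 deposited columns had a 2% trimmed mean of 500.2 to 500.4. The number of arrays limits the precision.

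Within each type both arrays were scaled to the same trimmed mean, floored, and log2 ratios taken over 12422 and 12411 probe sets after 66 controls per type were left out. Gene identifiers were used to update symbols with RefSeq's table for assembly GRCm38.p6 (10817 and 10550 matched, 16 and 31 kept). A gene took its probe set of highest mean log2 signal. Genes with that mean above the floor on both types were fitted with limma 3.58.1 (lmFit, eBayes, Benjamini-Hochberg) in R 4.3.3, with array type as a block, with 1 residual and 15.4 prior degrees of freedom. The main scaling, floor, choice of probe set and limma fit were tested on simulated data, with a different floor filter for the genes fitted. The alternatives, gene lists and promoter search were not tested in this way.

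The members, gene lists, tests and alternatives were chosen with earlier results of these data known. All members are named, list genes past 2-fold or else the 2 brightest of a list, and every mast cell and Schwann gene above the floor. Other list genes, and the grouping by role, were chosen after their values were seen. Alternatives covered scaling, floor, probe sets and block.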

Additional observations from a re-analysis of the deposited data

How the results depend on the processing

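Among the settings tried, spike-in scaling and the floor moved the counts. Under spike-in scaling 4 first-type and 2 second-type member probe sets passed 2-fold, as did 9 and 6 other pigment cell genes. The members' median log2 ratios became 1.03 and 1.41. The medians of all probe sets above the floor also rose, to 0.66 and 0.60. The share of all probe sets or genes past 2-fold was not computed under this scaling, so these counts have no background. With a floor at the 20th percentile 1 first-type member passed, which is Mitf, and 4 and 2 other genes did. Of all first-type probe sets 3.49% passed 2-fold higher in knockout there. With no floor and a pseudocount of 1 the counts were 1 first-type member, and 11 and 2 other genes. There 6.71% of first-type probe sets passed 2-fold higher. The shares of all genes past 2-fold either way were not computed for these settings. On the second type 0 other genes passed with a 60th-percentile floor or with the floor added as a pseudocount. The mean log2 ratio of Dct was 1.61 under spike-in scaling, where 597 of 1075 genes passed limma's adjusted p of 0.05. It was 0.94 for a 60th-percentile floor (6 of 570 genes passed) and with the median over probe sets (7 of 945), settings that test fewer genes. Left with 1 array type each, Dct ranged from 0.74 to 1.14, with no test. The labels number no replicates, so array type served as the block. With no replicate block the Dct value was 0.94 with an unadjusted limma p of 0.355, since level differences between the probe sets of the types then enter the residual. No member ratio above 0 turned negative under any alternative, though changed floors, pseudocounts and spike-in scaling could not have turned one. Tyrp1 97956_g_at, without a ratio at the main floor, was negative under 3 alternatives, to -0.63. Signals near the floor, those of Tyr, Mitf, Kit and Kitl, limit what can be said of these genes.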
